A study of Mus musculus with 7 samples.

Results

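The mitochondrial fission and fusion factors described here are 10 genes, taken by their gene names: the fusion GTPases Mfn1, Mfn2 and Opa1, the fission factors Dnm1l, Fis1, Mff, Mtfr1, Mtfp1 and Gdap1, and the protease gene Oma1. They are 10 of 37074 gene names on the array and are covered by 25 of its 56605 distinct non-control probes. Of the 25 probes, 22 were well above background on at least 3 arrays and were tested. The remaining 3, one each for Opa1, Mff and Gdap1, were not well above background on any array. Every one of the 10 genes kept at least 1 tested probe.

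Mitochondria continually join and divide. The mitofusins Mfn1 and Mfn2 tether and fuse the outer membranes of neighbouring mitochondria, and Opa1 fuses the inner membranes and shapes the cristae. For division, the cytosolic dynamin Drp1, the product of Dnm1l, is drawn by outer membrane adaptors such as Mff and Fis1 into a ring that constricts the organelle. In the heart, where mitochondria are packed between the myofibrils, loss of both mitofusins or of Drp1 from cardiomyocytes of mice causes cardiomyopathy.

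Total RNA from hearts of adult female mice was hybridised to 7 one-colour Agilent arrays. In the 4 knockouts (samples Mutant_175, Mutant_182, Mutant_187 and Mutant_188) Brg1 was deleted with tamoxifen through a Cre-ERT recombinase under a myosin heavy chain (MHC) promoter, in mice null for Brm. Brg1 and Brm are the alternative ATPases of the SWI/SNF chromatin remodelling complexes. The 3 wild type samples (Wild Type_181, Wild Type_183 and Wild Type_189) carried no transgene and also received tamoxifen. The sources used here do not state their Brm status, the strain or the time after tamoxifen. The Cre acts in cardiomyocytes, so the other cells of a knockout heart keep Brg1, and although cardiomyocytes are the labelled cell type, the source is heart and no cell isolation is described. The labels number the samples without stating that each came from its own animal, so p-values measure only how far these samples spread, which may be technical. All 7 arrays were on 1 slide, with every knockout array in row 2 and every wild type array in row 1, so slide row and group cannot be told apart.

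Values of a group are listed in the sample order just given. They are relative signals, where a relative signal is a probe's processed signal divided by the 75th percentile of its own array. Fold changes come from limma as log2 differences, knockout minus wild type, and a probe or gene was called at an adjusted p under 0.05, adjusted over all 34481 probes or 22971 genes tested. Relative signals of different probes cannot be set against each other, so levels are compared only within a probe. The targeted gene Smarca4, which encodes Brg1, was at 5.87, 10.26, 14.95 and 8.25 in Mutant_175, Mutant_182, Mutant_187 and Mutant_188, against 34.7, 32.8 and 34.2 in wild type (log2 fold change -1.87, SE 0.29, adjusted p = 0.0021, limma). Smarca2, which encodes Brm, was not called (0.08, SE 0.11, adjusted p = 0.59, limma). The sources used here do not state which exons were deleted, and a probe outside them checks nothing. The percentile scaling sets aside any difference in total messenger RNA between the groups. Scaling to 7 spike-in probes instead added 0.57 to the log2 fold changes and moved the median over all probes to 0.47, against -0.10 with the percentile. All directions below are relative to the 75th percentile, and spike-in values are given beside the genes and lists they change.

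Cardiomyocyte markers were bright in every sample, and markers of several cell types moved with the groups. The summed relative signal of 12 cardiomyocyte markers was 2794 to 3752 in knockout against 6977 to 7522 in wild type, and 11 of the 12 were called lower and 0 higher (7 lower with spike-in scaling). For 10 fibroblast markers it was 924.2 to 1024 in knockout against 607.4 to 649.7 in wild type, with 7 called higher and 0 lower. For 10 macrophage markers it was 85.4 to 136.8 in knockout against 78.35 to 81.12 in wild type, with 7 called higher and 0 lower (8 higher with spike-in scaling). Of 8 smooth muscle and pericyte markers, 2 were called higher (Acta2 and Pdgfrb) and 2 lower (Abcc9 and Kcnj8). Their sum was 447.2 to 539.6 in knockout against 124.9 to 141.5 in wild type. Most of the knockout sum was Acta2, at 380.8 to 465.3 in knockout against 33.39 to 44.75 in wild type. The rise of the sum therefore describes that gene and not the list. With spike-in scaling 4 smooth muscle and pericyte markers were higher (Acta2, Myh11, Pdgfrb and Tagln) and 1 lower (Abcc9). Endothelial sums overlapped, at 104.5 to 150.1 in knockout and 119.8 to 125.7 in wild type, with 1 of 9 markers higher and 2 lower. With spike-in scaling 2 endothelial markers were higher and 0 lower. In bulk tissue, fewer cells of a type and less RNA per cell cannot be told apart, and the part of cell makeup in the results below was not tested.

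The sequences of 4 probes are shown because they lie in fusion genes that fell and in fission genes that were not called. The mouse arrays carry probes of 60 bases, and positions are those of the files, on build mm9. The Opa1, Fis1 and Mff probes each span more of the genome than their own length, so each crosses at least 1 splice junction and reads spliced transcript. The Mfn1 probe is contiguous. No annotation of build mm9 was used here, so exons are not named. The sequences are in lower case throughout, 5′ to 3′.
Mfn1 (chr3:32461937-32461996, plus strand): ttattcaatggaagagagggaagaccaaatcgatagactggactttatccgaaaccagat
Opa1 (chr16:29629784-29630207, plus strand): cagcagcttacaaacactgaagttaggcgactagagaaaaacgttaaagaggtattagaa
Fis1 (chr5:137441507-137441812, plus strand): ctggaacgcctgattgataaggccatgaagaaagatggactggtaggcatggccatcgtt
Mff (chr1:82727811-82743670, plus strand): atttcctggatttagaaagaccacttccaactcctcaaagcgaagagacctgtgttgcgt

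All 3 fusion GTPases fell in knockout hearts, while none of the probes of Dnm1l, Fis1 or Mff, the core of the division machinery, was called at the settings used here. The brightest Dnm1l and Mff probes lay lower in every knockout sample, at adjusted p just above the threshold, and were called lower under 5 of 18 alternative settings. Outside that core, Mtfr1 and Mtfp1 fell, and Gdap1 was above background only in knockout. Of the 22 probes tested, 10 were called lower, 1 higher and 11 were not called. The 1 higher is Gdap1, which passed the filter on dim probes through the knockout samples alone. Among all probes tested, 24% were called lower, 16.5% higher and 40.5% in either direction. By class, 6 of 7 fusion probes were called lower and 0 higher, and the median over the 7 was -1.08 on the log2 scale. Of the 13 fission probes, 3 were called lower and 1 higher, and their median was -0.13. The 8 probes of Dnm1l, Fis1 and Mff gave 0 calls, with a median of -0.12; missing the threshold does not show that they were unchanged. Knockout and wild type samples did not overlap in 14 of the 22 probes, against 49.6% of all probes. With spike-in scaling, 5 of the 22 were called lower and 4 higher, against 6.9% and 38.4% of all probes.

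**Figure D1:**
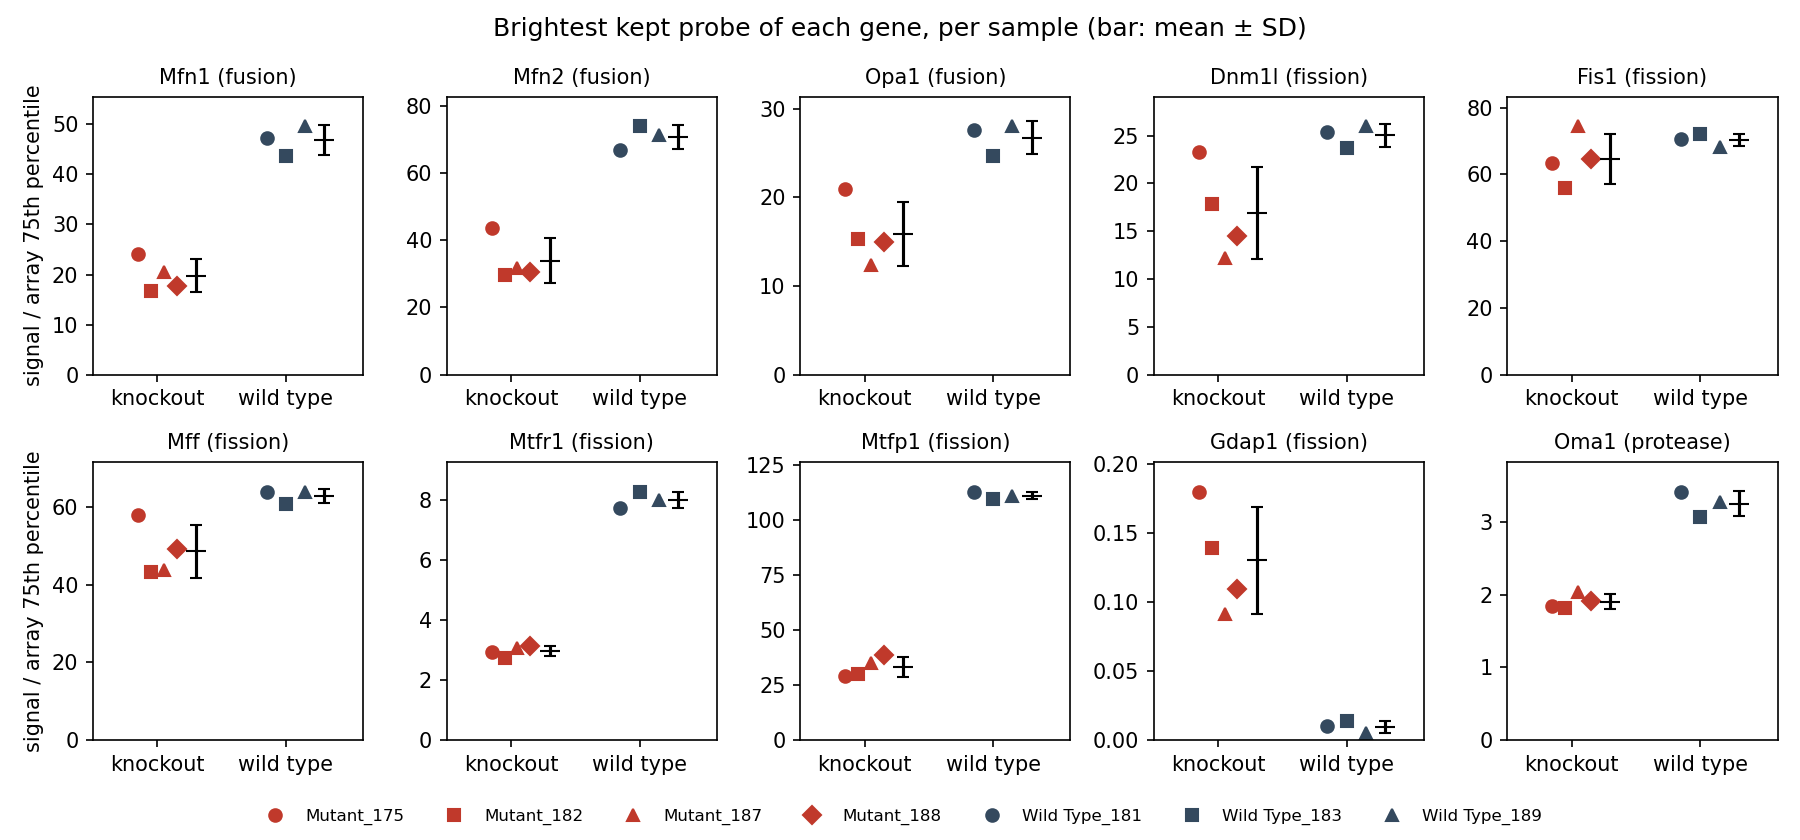
Relative signal (processed signal divided by the array's 75th percentile, linear axes from 0) of the brightest tested probe of each of the 10 genes, in 4 knockout and 3 wild type samples, with mean ± SD beside the points. The 3 fusion genes, Dnm1l, Mff, Mtfr1, Mtfp1 and Oma1 lie lower in every knockout sample, with Dnm1l and Mff nearest to wild type in Mutant_175, Fis1 overlaps between the groups, and Gdap1 is above background only in knockout.

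Mfn1, the outer membrane fusion GTPase, fell on both of its probes. At chr3:32476215-32476274 its relative signal was 24.1, 16.7, 20.5 and 17.8 in Mutant_175, Mutant_182, Mutant_187 and Mutant_188, against 47.2, 43.7 and 49.6 in wild type. Every knockout sample lay below every wild type sample, with means of 19.8 ± 3.3 and 46.8 ± 3.0 (SD, n = 4 and 3). The log2 fold change was -1.26 (SE 0.15, adjusted p = 0.00076, limma), which leaves 0.419 of the wild type signal. The second probe, the Mfn1 sequence shown above, lies upstream of the first in the same gene. It read 0.491, 0.349, 0.411 and 0.371 in knockout against 1.11, 1.02 and 1.15 in wild type, a log2 difference of -1.44 (SE 0.15, adjusted p = 0.00034, limma). Both probes were called lower under every one of the 18 alternative settings, spike-in scaling included, where they gave -0.69 and -0.87.

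Mfn2, the second mitofusin, which also tethers mitochondria to the endoplasmic reticulum, fell on both of its bright probes. At chr4:147247695-147247748 it read 43.7, 29.6, 31.8 and 30.4 in knockout against 66.8, 73.9 and 71.4 in wild type, with means of 33.9 ± 6.6 and 70.7 ± 3.6 (SD, n = 4 and 3). Mutant_175 stood nearest to wild type, and the groups did not overlap. The log2 fold change was -1.08 (SE 0.16, adjusted p = 0.0018, limma). The probe at chr4:147248131-147248190, close to the first, gave -0.78 (SE 0.17, adjusted p = 0.0080, limma). With spike-in scaling these became -0.51 (adjusted p = 0.074, limma) and -0.22 (adjusted p = 0.43, limma), so both calls were lost there and the direction held. A dimmer Mfn2 probe with a wide spread at chr4:147255665-147255724 read 0.0522, 0.0329, 0.123 and 0.0653 in knockout against 0.0367, 0.249 and 0.553 in wild type. Its samples overlapped, and it was not called (log2 fold change -1.49, SE 0.88, adjusted p = 0.21, limma). Without Wild Type_181 it was -2.61 and called (adjusted p = 0.015, limma).

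Opa1, the inner membrane fusion GTPase, fell by less. At chr16:29654613-29654672 it read 20.9, 15.2, 12.3 and 14.99 in knockout against 27.5, 24.6 and 28 in wild type. Again Mutant_175 was the highest knockout sample, and the groups did not overlap. This gave a difference of -0.78 on the log2 scale (SE 0.19, adjusted p = 0.013, limma). The junction probe shown above, which lies upstream, read 3.72, 3.02, 2.41 and 2.79 in knockout against 4.69, 4.52 and 5.37 in wild type, a log2 difference of -0.72 (SE 0.17, adjusted p = 0.012, limma). In that order, both calls were lost without Wild Type_189, at -0.74 and -0.64 (adjusted p = 0.052 and 0.054, limma). With spike-in scaling they were also lost, at -0.21 and -0.15 (adjusted p = 0.46 and 0.59, limma).

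Oma1 encodes the stress-activated inner membrane protease that cleaves Opa1 and so stops inner membrane fusion. Its bright probe, at chr4:103038974-103039033, read 1.85, 1.82, 2.04 and 1.92 in knockout against 3.42, 3.07 and 3.28 in wild type. The knockout samples lay close together and all below wild type. This gave a difference of -0.77 on the log2 scale (SE 0.11, adjusted p = 0.0014, limma), and -0.21 (adjusted p = 0.40, limma) with spike-in scaling. A dim Oma1 probe at chr4:103026446-103026505, well above background on 3 of 4 knockout and 2 of 3 wild type arrays, gave 0.14 (SE 0.35) and was not called.

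**Figure D2:**
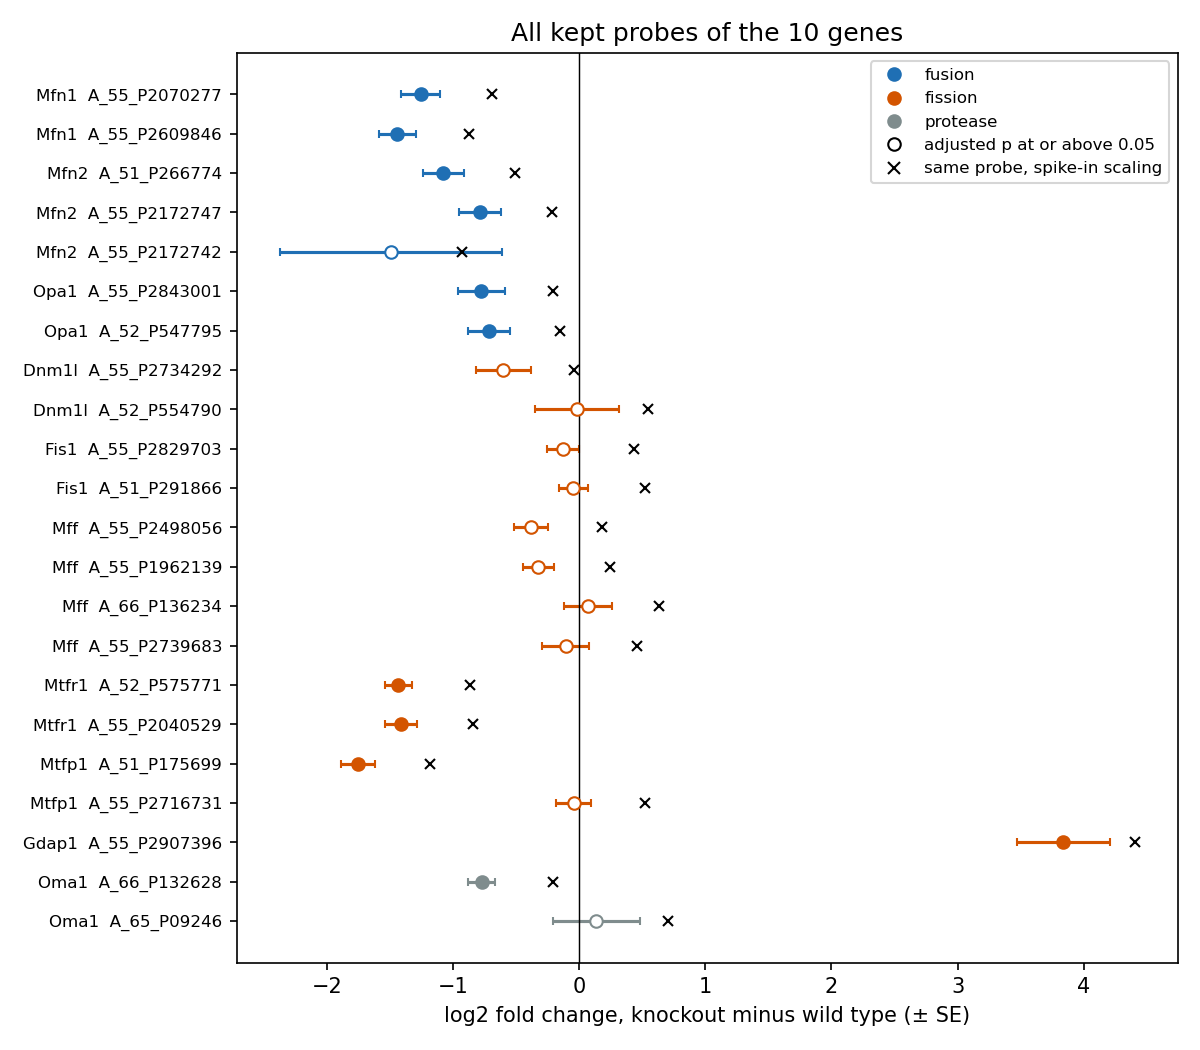
Log2 fold change (knockout minus wild type, ± SE) of the 22 tested probes, coloured by role, filled where the adjusted p was under 0.05, with crosses for the same probe under spike-in scaling. The fusion probes called lie between -1.44 and -0.72, the probes of Dnm1l, Fis1 and Mff between -0.60 and 0.07 and open, and Gdap1 at 3.84, a fitted value against signals at background; spike-in scaling moves all of them up by about the same amount.

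Dnm1l encodes Drp1, the GTPase that constricts mitochondria and peroxisomes. At chr16:16312363-16312422 it read 23.3, 17.8, 12.2 and 14.5 in Mutant_175, Mutant_182, Mutant_187 and Mutant_188, against 25.4, 23.7 and 26.0 in wild type. No knockout sample reached the lowest wild type sample, but Mutant_175 came within a few percent of it and the knockout samples spread widely, at 16.9 ± 4.8 against 25.0 ± 1.2 (SD, n = 4 and 3). The log2 fold change was -0.60 (SE 0.22, adjusted p = 0.060, limma). It was called lower with a trended robust prior (adjusted p = 0.041, limma), with the filter over all arrays (adjusted p = 0.048, limma) and with array weights (-0.66, adjusted p = 0.0063, limma). Without Mutant_175 it was -0.77 and also called (adjusted p = 0.0079, limma), while with spike-in scaling it was -0.04 (adjusted p = 0.91, limma). A dim second probe at chr16:16336911-16336970 gave -0.02 (SE 0.33), with overlapping groups, and 0.55 (adjusted p = 0.18, limma) with spike-in scaling.

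Fis1 is an outer membrane adaptor of division, and neither of its probes was called. At chr5:137442037-137442096 it read 63.4, 55.9, 74.4 and 64.7 in knockout against 70.5, 72.1 and 68.2 in wild type. The knockout samples lay on both sides of the wild type range. This gave a difference of -0.13 on the log2 scale (SE 0.13, adjusted p = 0.45, limma). The junction probe shown above read 11.2, 9.78, 11.8 and 10.95 in knockout against 11, 11.2 and 11.6 in wild type, a log2 difference of -0.05 (SE 0.11, adjusted p = 0.77, limma). With spike-in scaling the first probe turned to 0.44 (adjusted p = 0.095, limma). The junction probe turned to 0.52 and was then called higher (adjusted p = 0.046, limma).

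Mff, the main outer membrane receptor of Drp1, was read by 4 tested probes that did not move alike. At chr1:82748825-82748884 it read 58.0, 43.2, 43.8 and 49.2 in knockout against 64.0, 60.7 and 63.9 in wild type, a log2 difference of -0.38 (SE 0.14, adjusted p = 0.059, limma). The neighbouring probe at chr1:82748724-82748783 gave -0.32 (SE 0.13, adjusted p = 0.076, limma), and neither overlapped between the groups. The probe at chr1:82748286-82748345, close to both, gave 0.07 (SE 0.19), and the junction probe shown above gave -0.11 (SE 0.18), each with overlapping groups and Mutant_175 as the highest sample. The first probe was called lower with a trended robust prior (adjusted p = 0.033, limma), with the filter over all arrays (adjusted p = 0.0497, limma) and with array weights (-0.42, adjusted p = 0.00998, limma). Without Mutant_175 the first pair passed the test, at -0.47 and -0.40 (adjusted p = 0.011 and 0.018, limma). With spike-in scaling all 4 were above 0, from 0.18 to 0.63, and the probe at chr1:82748286-82748345 was called higher (adjusted p = 0.039, limma).

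Mtfp1 and Mtfr1, by contrast, were the fission factors that fell. Mtfp1 is an inner membrane protein that promotes Drp1-dependent division. At chr11:3991559-3991618 it read 29.0, 30.2, 34.98 and 38.4 in knockout against 112.8, 109.5 and 110.6 in wild type. The groups were far apart, with means of 33.2 ± 4.4 and 111 ± 1.7 (SD, n = 4 and 3). The log2 fold change was -1.75 (SE 0.13, adjusted p = 0.00011, limma), which leaves 0.297 of the wild type signal. A dim probe at chr11:3994859-3994918, annotated to another transcript accession, read 0.0820, 0.0812, 0.0930 and 0.108 in knockout against 0.0908, 0.0905 and 0.0986 in wild type, and was not called (-0.04, SE 0.14). With spike-in scaling that dim probe was called higher, at 0.52 (adjusted p = 0.034, limma), and the bright one stayed lower at -1.19.

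Mtfr1, an outer membrane-associated regulator whose product promotes fragmentation of mitochondria, fell on both of its probes. At chr3:19119481-19119540 it read 2.95, 2.74, 3.08 and 3.12 in knockout against 7.76, 8.29 and 8.03 in wild type, with means of 2.97 ± 0.17 and 8.02 ± 0.27 (SD, n = 4 and 3). The spread within each group was a small part of the distance between them. This gave a difference of -1.43 on the log2 scale (SE 0.11, adjusted p = 9.8e-05, limma), and -1.41 (SE 0.13, adjusted p = 0.0002, limma) at chr3:19119311-19119370. The Mtfr1 probes and the bright Mtfp1 probe were called lower under all 18 alternative settings.

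Gdap1 encodes an outer membrane protein of neurons and Schwann cells that promotes division and is mutated in a form of Charcot-Marie-Tooth neuropathy in humans. At chr1:17153402-17153461 it read 0.180, 0.140, 0.0915 and 0.110 in knockout, well above background on 4 of 4 arrays, against 0.0101, 0.0135 and 0.0050 in wild type, well above background on 0 of 3. The probe passed the filter through the knockout samples alone. It was at least 4.65-fold higher in knockout, taking each wild type array's lowest signal that was well above background as its level. This bound was not tested, and the adjusted p of 0.00026 (limma) belongs to the fitted difference. That p gives no support of its own, since the filter kept the probe only because it was high in knockout. The fitted size depends on the background correction, at 3.84 on the log2 scale here and 1.27 after normexp correction with quantile normalization. Markers of Schwann cells and neurons moved both ways: of 15 listed and 13 measured, 3 were called higher (Sox10, Mbp and Tubb3) and 2 lower (Dbh and Syt1). Mbp has 3 tested probes, of which 1 was called higher and 1 lower. Syt1 was well above background on 0 of 4 knockout and 3 of 3 wild type arrays, so it passed the filter through wild type alone. With spike-in scaling 4 of these markers were higher and 2 lower. Their summed signal was 32.9 to 40.8 in knockout against 42.65 to 45.4 in wild type. Most of each sum was Snap25, at 18.18 to 29.91 in knockout against 27.03 to 29.71 in wild type. Snap25 overlapped between the groups and was not called. The lower sum therefore gives no direction for the list. The part of these markers in the Gdap1 result was not tested.

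The samples of the knockout group differed in a shared way. Mutant_175 was the highest knockout sample for 13 of the 22 probes, and Mutant_182 was the lowest for 12. On the brightest probe of each gene, Mutant_175 was highest for Mfn1, Mfn2, Opa1, Dnm1l, Mff and Gdap1, and lowest for Mtfp1. Its shift from the wild type mean was -0.35 for Opa1 and -0.10 for Dnm1l on the log2 scale, against -1.12 to -0.81 and -1.04 to -0.49 in the other knockout samples. For Mtfr1 and Oma1 the knockout samples stayed together, from -1.55 to -1.36 and from -0.84 to -0.67.

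A balance was taken per sample as the mean log2 level of Mfn1, Mfn2 and Opa1 minus that of the fission factors, each gene averaged over its tested probes and centred on its wild type mean, so that any scaling common to all probes of an array cancels. Without Gdap1, whose wild type signals are at background, it was -0.34, -0.62, -0.36 and -0.64 in knockout, against -0.23, 0.00 and 0.23 in wild type, a difference of -0.49. The groups did not overlap, but Mutant_175 stood close to Wild Type_181. The averages include dim probes that were not called, such as those of Mfn2 (SE 0.88), Dnm1l and Mtfp1. By brightest probes, Mutant_175 shifted by -0.96, -0.69 and -0.35 for Mfn1, Mfn2 and Opa1. Its shifts were -0.10, -0.15, -0.115, -1.44 and -1.93 for Dnm1l, Fis1, Mff, Mtfr1 and Mtfp1. On these shifts the fusion genes of Mutant_175 did not fall further on average than these fission factors. Mtfr1 and Mtfp1 fell by more than any fusion gene there, and Dnm1l, Fis1 and Mff by less. A balance by brightest probes without Gdap1 was not run. The lack of overlap without Gdap1 is therefore shown only for averages that include dim probes. A comparison with Dnm1l, Fis1 and Mff only was added after the data were seen. There the balance was -0.87, -1.05, -0.64 and -0.96 in knockout against -0.25, 0.02 and 0.23 in wild type, a difference of -0.88. With all 6 fission factors it was -1.14, -1.39, -1.04 and -1.34 in knockout against -0.27, -0.10 and 0.37 in wild type, with means of -1.23 ± 0.17 and 0.00 ± 0.33 (SD, n = 4 and 3). The size and the wild type spread of that last balance include Gdap1 signals at background. It was -0.37 with the filter over all arrays, which drops the Gdap1 probe and also the dim Mfn2 and Dnm1l probes. No p is given, since the genes were picked with results in view.

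**Figure D3:**
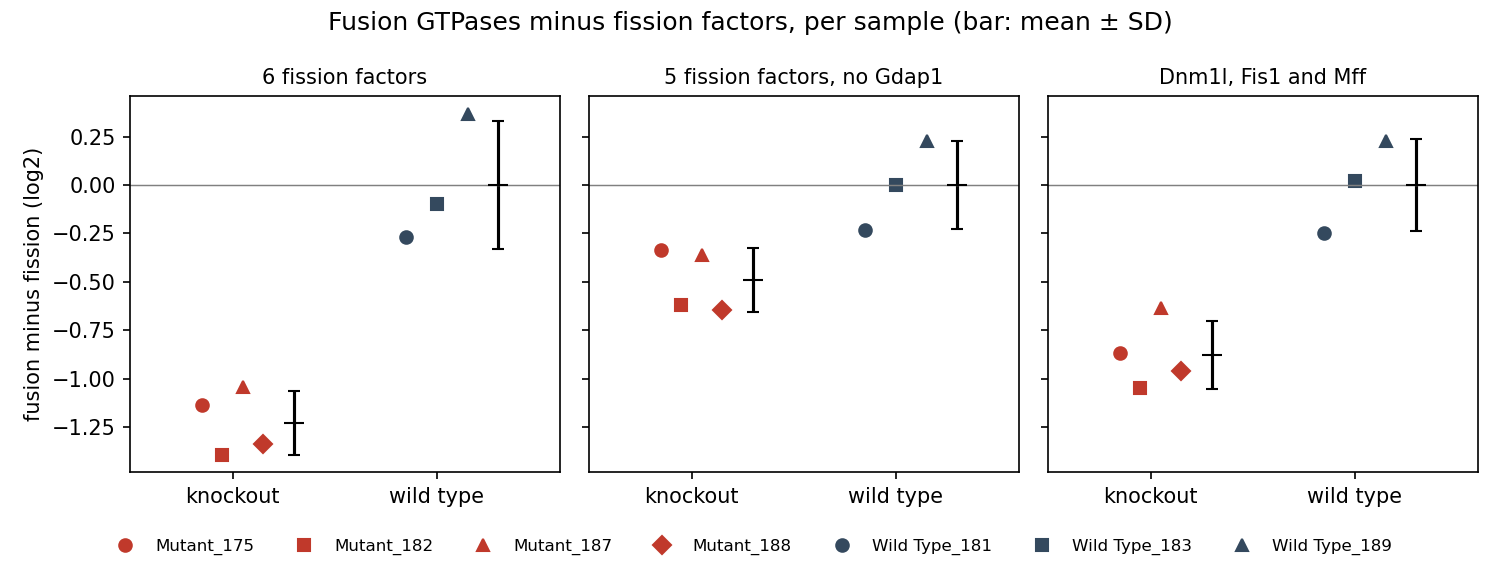
Mean log2 level of the fusion GTPases minus that of the fission factors in each sample, relative to the wild type mean, with mean ± SD beside the points, for 3 choices of fission factors. The difference is -1.23 with all 6, -0.49 without Gdap1 and -0.88 against Dnm1l, Fis1 and Mff, and the groups do not overlap in any panel. Each gene is averaged over its tested probes, dim ones included.

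Other genes of mitochondrial dynamics were taken from 5 lists of 56 genes, of which 55 were measured, each by its brightest tested probe. Of these, 8 were called higher and 28 lower, and their median difference was -0.39 on the log2 scale, against 16.3% of all genes called higher, 25.8% lower and 42.1% in either direction and a median over all genes of -0.12. Without Wild Type_181, Wild Type_183 or Wild Type_189 the number called lower was 18, 17 and 16. With spike-in scaling 11 were called higher and 4 lower, with a median of 0.18, against 37.2% and 7.44% of all genes and an all-gene median of 0.44, so more of them were then higher than lower. The 4 that stayed lower are Miga2, Mtfr1l, Rhot2 and Chchd3. The 8 and the 11 called higher both include Spire1, which passed the filter through the knockout samples alone. Of the 39 genes with several tested probes, 0 had probes called in both directions. Some genes not called by their brightest probe were called lower on others, and no such gene was called higher on others. These are Sh3glb1, on 3 of 4 probes, and Dnm2, Marchf5, Immt and Miga1, on 1 probe each, named after their values were seen. Conversely, Slc25a46 and Samm50, also named after their values were seen, were among the 28. Their adjusted p in the fit over genes was 0.0489 and 0.0478 (limma). No probe of either gene was called in the fit over probes.

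Partners of fusion and inner membrane proteases had 9 of 14 lower and 1 higher, with a median of -0.54. With spike-in scaling 1 was lower and 2 higher, with a median of 0.02. Miga2, an outer membrane protein that promotes fusion, read 6.67, 6.47, 7.80 and 7.79 in knockout against 17.8, 17.5 and 19.5 in wild type (-1.35, SE 0.12, adjusted p = 0.0002, limma). Phb, a prohibitin that scaffolds the inner membrane and preserves long Opa1, fell by 0.95 (adjusted p = 0.00083, limma), with the call lost under spike-in scaling at -0.38 (adjusted p = 0.11, limma). Prelid1, which carries phosphatidic acid between the membranes for cardiolipin synthesis, read 32.2, 41.2, 47.2 and 31.0 in knockout against 17.6, 17.7 and 14.9 in wild type, and rose by 1.16 (adjusted p = 0.0020, limma). Miga1, named after its values were seen, is read by a probe under its current name at 0.24 and by 1 tested probe under its older name Fam73a at -1.06 (adjusted p = 0.012, limma). On the first of these probes, Miga1 was among the 2 genes called higher with spike-in scaling.

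Adaptors and regulators of fission moved both ways, with 5 of 17 higher and 4 lower and a median of -0.06. Under spike-in scaling the calls were 6 higher and 1 lower, and the median became 0.51. Mtfr1l, a relative of Mtfr1, fell by 1.29 (adjusted p = 0.00037, limma), at 21.8, 22.1, 22.8 and 21.5 in knockout against 44.6, 57.0 and 61.5 in wild type. Gdap1l1, the paralog of Gdap1, read 1.996, 0.920, 1.02 and 0.925 in knockout against 0.186, 0.167 and 0.179 in wild type. It was well above background on every array and rose by 2.70 (SE 0.28, adjusted p = 0.00035, limma). Gdap1 itself passed the filter through the knockout samples alone, so its direction adds nothing to that of Gdap1l1. Senp5, a SUMO protease that acts on Drp1, rose by 0.95 (adjusted p = 0.00062, limma).

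Of 6 genes of mitochondrial transport, 3 were lower and 1 higher, with a median of -0.40. With spike-in scaling 1 was lower and 1 higher, with a median of 0.16. Rhot2, an outer membrane GTPase that links mitochondria to motors, read 24.5, 16.7, 18.3 and 17.1 in knockout against 49.3, 59.1 and 51.9 in wild type (-1.49, SE 0.16, adjusted p = 0.00044, limma). Rmdn3, a tether to the endoplasmic reticulum, fell by 0.89 (adjusted p = 0.0083, limma), a call lost with spike-in scaling at -0.33 (adjusted p = 0.30, limma). Armcx3, which regulates mitochondrial transport in neurons, rose by 1.19 (adjusted p = 0.00033, limma).

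The MICOS complex, which holds the cristae junctions and works with Opa1, and its outer membrane partners had 9 of 11 lower and 0 higher, with a median of -0.60. With spike-in scaling only Chchd3 was called, and the median was -0.04. Chchd3, a MICOS subunit, read 37.6, 28.7, 21.2 and 31.3 in knockout against 71.5, 75.3 and 72.3 in wild type (-1.33, SE 0.19, adjusted p = 0.0015, limma). Of its 4 tested probes, 2 were called lower. Micos10, the subunit that bends the cristae membrane, fell by 0.99 (adjusted p = 0.0012, limma), and Mtx1, of the outer membrane import machinery, by 0.64 (adjusted p = 0.0029, limma). With spike-in scaling the last 2 calls were lost, at -0.42 and -0.08 (adjusted p = 0.080 and 0.77, limma).

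**Figure D4:**
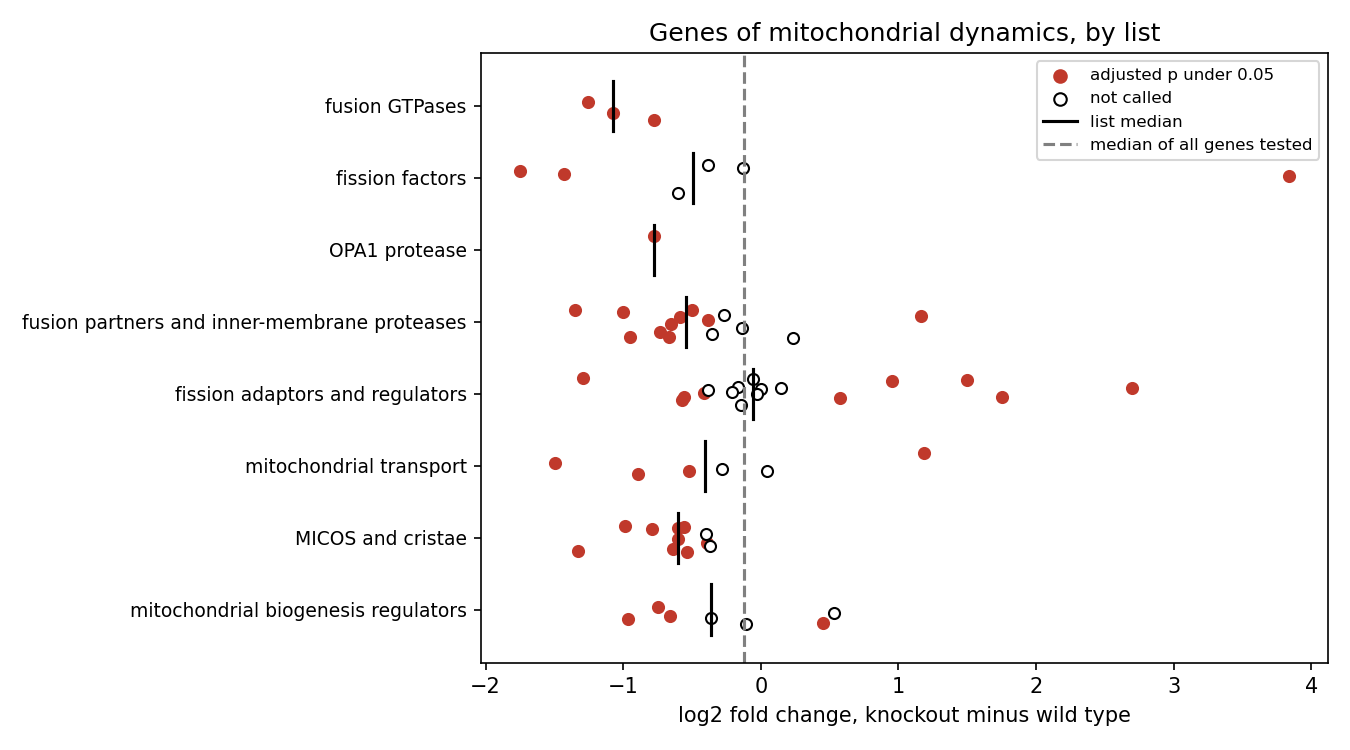
Log2 fold change (knockout minus wild type) of each measured gene of mitochondrial dynamics by list, filled where the adjusted p was under 0.05, with the list median as a bar and the median of all genes tested, -0.12, as a dashed line. Most of the fusion and MICOS genes lie left of that line, and the fission adaptors and regulators lie on both sides of it; spike-in scaling moves every point up by 0.57.

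Regulators of mitochondrial biogenesis had 3 of 7 lower and 1 higher, with a median of -0.36. With spike-in scaling 0 were lower and 2 higher, Nrf1 and Pprc1, with a median of 0.21. Esrra, the estrogen-related receptor alpha, read 36.9, 33.1, 33.1 and 34.2 in knockout against 65.4, 68.2 and 67.8 in wild type (-0.97, SE 0.10, adjusted p = 0.00036, limma). Of its 2 tested probes, 1 was called lower. Tfam, the mitochondrial DNA packaging and transcription factor, fell by 0.66 (adjusted p = 0.0056, limma). Under spike-in scaling both calls were lost, at -0.40 and -0.09 (adjusted p = 0.095 and 0.66, limma). Nrf1, a transcription factor of respiratory genes, rose by 0.45 on its brightest probe (adjusted p = 0.019, limma), with 1 of its 3 tested probes called higher. That call was lost without Wild Type_181, Wild Type_183 or Wild Type_189, at 0.45, 0.47 and 0.42 (adjusted p = 0.063, 0.057 and 0.080, limma).

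Of these regulators, the products of Esrra, Nrf1 and Gabpa bind short motifs near gene starts. The 250 bases before each start were therefore searched for those motifs in RefSeq promoters of build GRCm38.p6, on both strands. They held 13 windows for 8 of the 10 genes. The estrogen-related receptor half-site AAGGTCA was in 0 of the 13, against 4.08% of 32851 windows. The NRF1 motif, GCGC followed by any 2 bases and GCGC again, was in 2 windows, those of Opa1 and Oma1, against 4.98%. The ETS motif CCGGAAG, which GABP binds, was in 2 windows, those of Mfn1 and Fis1, against 6.91%. No motif overlapped another in the windows printed here. A match describes letters only, and no match says nothing of the factor. The windows of 3 genes that fell are shown, with matches in capitals.
Mfn1 (chr3:32529232-32529481, plus strand): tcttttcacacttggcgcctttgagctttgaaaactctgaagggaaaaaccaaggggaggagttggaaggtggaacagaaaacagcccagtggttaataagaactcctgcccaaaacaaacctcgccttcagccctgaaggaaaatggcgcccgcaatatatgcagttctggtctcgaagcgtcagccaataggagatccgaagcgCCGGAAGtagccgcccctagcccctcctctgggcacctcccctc
Opa1 (chr16:29579084-29579333, plus strand): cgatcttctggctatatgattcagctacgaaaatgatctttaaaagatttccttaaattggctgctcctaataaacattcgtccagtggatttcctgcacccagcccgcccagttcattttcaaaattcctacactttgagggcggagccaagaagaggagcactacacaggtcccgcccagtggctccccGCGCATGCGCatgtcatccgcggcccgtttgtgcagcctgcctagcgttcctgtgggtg
Mtfp1 (chr11:4095432-4095681, minus strand): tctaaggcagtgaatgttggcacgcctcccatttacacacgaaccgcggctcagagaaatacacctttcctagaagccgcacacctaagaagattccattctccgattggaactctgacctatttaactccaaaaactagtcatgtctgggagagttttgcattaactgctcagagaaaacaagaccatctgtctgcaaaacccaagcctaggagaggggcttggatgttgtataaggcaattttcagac

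The genes whose pattern over the 7 arrays was most like that of Mtfp1, by Euclidean distance between log2 values centred on each gene's mean, were Sod2, Aqp1 and Srl, at distances of 0.19, 0.20 and 0.22 among 13259 genes compared. Sod2, the mitochondrial superoxide dismutase, read 11.6, 10.67, 12.4 and 13.7 in knockout against 38.4, 38.0 and 38.4 in wild type. For Mtfr1 the nearest were Gpc1 and Morn2, at 0.09 and 0.11. Gpc1, a cell surface proteoglycan, read 56.1, 52.1, 62.5 and 62.7 in knockout against 154.6, 162.1 and 156 in wild type.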

How the data were processed

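The 4 knockout and 3 wild type heart samples were measured on 1 slide, 1 array each. Per the file headers, Agilent Feature Extraction 10.7.3.1 read the spots, and the deposited files hold its processed signal, an intensity corrected for background and not logged, with flags and mean and background signals. The deposited value table holds the same intensity (99.6% of cells within 0.01 on the log2 scale), with column medians of 65.5, 83.3, 80.9 and 61.1 in the knockout samples and 47.7, 45.9 and 50.8 in the wild type samples; it is neither centred nor scaled between arrays. Of 59305 non-control spots per array, 82 to 146 outliers were left out, 0 were saturated and 58.1% to 63.6% were well above background. Precision is limited by the number of arrays.

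Spots of a probe were averaged, and log2 of the signal minus that of the array's 75th percentile was fitted with limma 3.58.1 (lmFit, eBayes) in R 4.3.3, knockout against wild type on all 7 arrays without covariates. Probes were kept if at least 3 arrays had them well above background, and p-values were adjusted by Benjamini-Hochberg. Genes were named by accession through RefSeq (32994 probes matched), otherwise by the file, and represented by their brightest kept probe; the 10 members were taken by the file's name. Named beyond the members were Smarca4, Smarca2, up to 3 called genes of smallest p per list with the largest opposite change, and the 3 genes most like Mtfp1 and Mtfr1, less 1 gene not reported here. The method was tested on simulated data. Alternatives were quantile, median, detected-probe percentile and spike-in scaling, normexp (offset 50), the authors' value table, 2 other filters, 2 other variance models, and leaving out samples. Members, lists and alternatives were chosen with earlier results of these data known. Figures used Python 3.11.15, pandas 2.3.3 and matplotlib 3.10.9.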

Additional observations from a re-analysis of the deposited data

Results flagged for a closer look

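Of 40 sets of 4 knockout values checked, 3 had 1 sample far from the other knockout samples by Dixon's criterion at the 95% level. Chance meets that criterion in about 1 set in 20. Gaps and ranges were taken on log2 values, while the readings below are relative signals. On the dim Dnm1l probe at chr16:16336911-16336970, Mutant_187 read 0.0188 and the other knockout samples 0.0426 to 0.0489, a gap of 0.854 of the range. On the Mff junction probe at chr1:82727811-82743670, Mutant_175 read 5.99 and the others 3.72 to 3.95, a gap of 0.874 of the range. For Gdap1l1, Mutant_175 read 1.996 and the others 0.920 to 1.02, a gap of 0.862 of the range, with all 4 above the wild type values of 0.167 to 0.186.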

How the results depend on the processing

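Both Mfn1 probes, both Mtfr1 probes and the bright Mtfp1 probe stayed called lower under all 18 alternatives. The brightest Dnm1l probe and the Mff probe at chr1:82748825-82748884 became called lower under 5 of the 18, at -0.77 to -0.60 and -0.47 to -0.38, and the neighbouring Mff probe under 4. Smarca4 stayed lower and called under every alternative run. With spike-in scaling 4 member probes were called higher and 5 lower, with 4 wider pathway genes lower and 11 higher. The filter over all arrays left 0 member probes higher, since it drops Gdap1. The fusion minus fission balance was -0.71 after normexp with quantile normalization, -0.84 with no filter and -0.37 with the filter over all arrays. By brightest probes, Gdap1 included, the balance was -0.96. It was -0.49 without Gdap1 and -0.88 against Dnm1l, Fis1 and Mff, the last chosen after the data were seen. Leaving out 1 sample at a time gave 16 to 35 wider pathway genes lower, against 28 with all samples, and 8 to 13 member probes lower. No paired analysis was possible because the groups share no replicate numbers.

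The sign turned only for probes that were not called with all samples and the main settings. With quantile normalization the Fis1 probes gave 0.10 (junction) and 0.11, the dim Dnm1l probe 0.0027 and the Mff junction probe 0.0046. With the percentile over detected probes, the Fis1 junction probe gave 0.068, dim Dnm1l 0.10, dim Mtfp1 0.073 and the Mff junction probe 0.006. With spike-in scaling the Fis1 probes gave 0.52 and 0.44, dim Dnm1l 0.55, dim Mtfp1 0.52, and the Mff probes 0.24, 0.18 and 0.46. After normexp, Fis1 gave 0.10 and 0.12, the Mff junction probe 0.033 and the dim Oma1 probe -0.0498. With array weights, dim Dnm1l gave 0.092, dim Mtfp1 0.0016 and the Mff probe at chr1:82748286-82748345 gave -0.033. Without Mutant_175 and Mutant_187 these were 0.26, 0.0094 and -0.072. Leaving out 1 sample at a time spanned -0.084 to 0.0055 for the Fis1 junction probe, -0.15 to 0.31 for dim Dnm1l, -0.13 to 0.0102 for dim Mtfp1, -0.29 to 0.39 for dim Oma1 and -0.092 to 0.14 for that Mff probe. The cause was not tested.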
